A study of Mus musculus with 8 samples.

Results

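The Iroquois transcription factors are the 6 genes Irx1 to Irx6. They were found by matching the Ensembl identifiers of the count table to the gene symbols, which gave 6 of 53465 genes in the table. All 6 were among the 15388 genes with enough counts to be tested. RNA was sequenced from heart ventricles of mouse embryos at embryonic day 15.5. Each library is described as coming from a single ventricle, which the sex-linked transcripts given below do not match. There were 4 WT libraries and 4 labelled Nrg-1flox;Cdh5-CreERT2. In the second genotype a Cre recombinase that tamoxifen activates is driven by the promoter of Cdh5, an endothelial cadherin gene, and is meant to delete floxed sequence of Nrg1, which encodes the growth factor neuregulin-1, in endothelial and endocardial cells. When tamoxifen was given, whether WT embryos received it, and whether they carried the floxed allele or the Cre are not given in the sources used here. Nothing in the labels says whether the 4 libraries of a group came from separate embryos or litters, so p-values measure the spread between these libraries only.

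Iroquois proteins bind DNA through a homeodomain of the TALE class and carry a short conserved Iro box. In mammals the genes lie in a pair of clusters that arose by duplication, with Irx1, Irx2 and Irx4 in the first and Irx3, Irx5 and Irx6 in the second. In the heart, Irx4 is a ventricular myocardial gene. Irx1, Irx2 and Irx3 are known from trabecular myocardium and the ventricular conduction system, the fast-conducting fibres that trabeculae give rise to. Irx3 is needed for rapid conduction and acts on connexin genes. Irx5 represses the potassium channel gene Kcnd2 across the ventricular wall. Irx6 is best known from bipolar cells of the retina.

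On the GRCm38 assembly, Irx1 (ENSMUSG00000060969) lies on chromosome 13 at 71957921 to 71963723 on the minus strand. Irx2 (ENSMUSG00000001504) lies at 72628820 to 72634198 and Irx4 (ENSMUSG00000021604) at 73260479 to 73269608, both on the plus strand. On chromosome 8, Irx3 (ENSMUSG00000031734) lies at 91798525 to 91802067 on the minus strand. It is followed on the plus strand by Irx5 (ENSMUSG00000031737) at 92357625 to 92376286 and Irx6 (ENSMUSG00000031738) at 92674288 to 92680956. The starts of the first and last gene are 1296.8 kb apart on chromosome 13 and 872.2 kb apart on chromosome 8, so the chromosome 8 cluster is the more compact.

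The homeobox is shown for each gene because it is the part in which their transcripts are nearly identical, and it bears on how reads were divided between them. The lines below give 186 bases of coding strand, 5′ to 3′, from GENCODE M21 transcripts, all of it coding sequence and in each gene within a single exon. Capitals mark runs of at least 60 bases, the length of a read, that are identical with another member: Irx3 with Irx6, and Irx2 with Irx5.

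Irx1: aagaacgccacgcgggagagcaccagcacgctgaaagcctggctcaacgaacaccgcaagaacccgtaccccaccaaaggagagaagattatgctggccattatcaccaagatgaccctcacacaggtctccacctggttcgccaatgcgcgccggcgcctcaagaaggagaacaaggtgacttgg

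Irx3: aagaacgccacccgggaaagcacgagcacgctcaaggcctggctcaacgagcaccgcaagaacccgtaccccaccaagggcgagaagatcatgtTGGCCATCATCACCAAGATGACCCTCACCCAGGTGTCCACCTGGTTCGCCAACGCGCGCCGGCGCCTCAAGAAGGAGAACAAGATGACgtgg

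Irx6: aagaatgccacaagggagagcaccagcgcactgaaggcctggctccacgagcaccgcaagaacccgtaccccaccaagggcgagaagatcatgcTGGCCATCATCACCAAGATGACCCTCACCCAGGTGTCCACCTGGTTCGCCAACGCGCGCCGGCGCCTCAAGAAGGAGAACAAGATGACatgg

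Irx4: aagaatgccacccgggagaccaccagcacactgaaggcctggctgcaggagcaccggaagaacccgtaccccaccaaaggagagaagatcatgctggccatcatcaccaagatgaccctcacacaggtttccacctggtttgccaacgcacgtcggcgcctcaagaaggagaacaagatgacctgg

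Irx2: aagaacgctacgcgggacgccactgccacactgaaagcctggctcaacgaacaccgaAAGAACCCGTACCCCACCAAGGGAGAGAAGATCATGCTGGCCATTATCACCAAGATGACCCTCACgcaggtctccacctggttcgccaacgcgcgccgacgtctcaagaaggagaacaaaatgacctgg

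Irx5: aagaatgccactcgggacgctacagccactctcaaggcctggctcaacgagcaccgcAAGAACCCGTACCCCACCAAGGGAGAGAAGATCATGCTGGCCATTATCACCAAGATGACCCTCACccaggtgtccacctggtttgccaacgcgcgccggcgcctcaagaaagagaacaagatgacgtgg

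The stretch of Irx1 is in exon 2 (chr13:71959983-71960168, minus strand), that of Irx2 in exon 2 (chr13:72630676-72630861, plus) and that of Irx4 in exon 5 (chr13:73267535-73267720, plus). Those of the other cluster are in exon 2 of Irx3 (chr8:91800487-91800672, minus), exon 2 of Irx5 (chr8:92359639-92359824, plus) and exon 4 of Irx6 (chr8:92677248-92677433, plus). Between any pair, 87.1% to 94.1% of the 186 bases were identical. Irx3 and Irx6, both on chromosome 8, were the closest in bases, at 94.1%, with an identical run of 88 bases. Irx2 and Irx5, on different chromosomes, shared 90.3% of bases and a run of 65, and by the standard genetic code all 62 of their 62 codons encode the same residues. Irx1 and Irx3, also on different chromosomes, encode the same residue at 61 of 62 codons but shared no run longer than 30 bases.

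**Figure D1:**
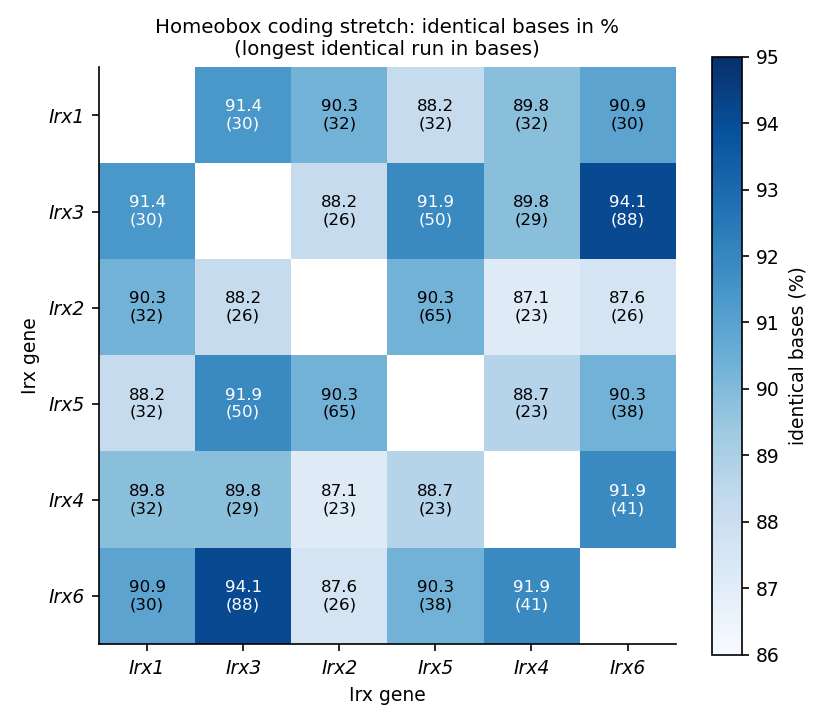
Each cell compares the homeobox coding stretch of a pair of Irx genes, giving the percentage of 186 aligned bases that are identical (colour) and, in parentheses, the longest identical run in bases. Irx3 with Irx6 (94.1%, 88 bases) and Irx2 with Irx5 (90.3%, 65 bases) are the pairs with a run longer than a read of 60 bases.

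A 60-base read can lie entirely within such a run, and the expected counts analysed here divide a read that fits several genes between them. Of 2762 different 60-base windows in Irx3 transcripts, 29 also occur in Irx6, and of 3329 windows in Irx2 transcripts, 6 occur in Irx5. Irx1 and Irx4 shared no window with another gene. With reads spread evenly along the transcripts, the windows that Irx3 shares with Irx6 would hold 3.54 to 5.77 of the Irx3 counts of a library, set against 38.01 to 97.9 expected counts of Irx6. Expected counts were not whole in 8 of 8 libraries for Irx2, Irx3, Irx5 and Irx6, in 7 for Irx4 and in 1 for Irx1.

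Antisense genes overlap a member at each end of the chromosome 8 cluster. Irx3os, on the plus strand at 91800415 to 91807539, shares 124 exonic bases with Irx3. Gm45505, on the minus strand at 92680172 to 92682194, shares 152 exonic bases with Irx6. The libraries keep strand, but whether the counting used it is not given in the sources used here. Gm45505 held at most 1 count in any library, and adding those counts to Irx6 gave a log2 fold change of 0.57 (FDR 0.274).

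Nrg1, the gene to be deleted, gave no lower level under the mutant label. Which exons are floxed is not given in the sources used here, so whether a count over the whole gene would fall on deletion is not known. It stood at 4.87 ± 0.636 CPM (counts scaled to the size of the library; SD, n = 4) in WT against 6.17 ± 0.611 CPM in the others, called mutant-labelled libraries from here on. Directions below are those of the labels. The libraries held 16761763 to 24144272 expected counts. No pair was a copy, the lowest chi-square per degree of freedom being 3.02 over 28 pairs. The summed level of 4 Y-linked genes was 69.3 to 171 CPM in WT and 42.9 to 120 CPM in mutant-labelled libraries. Xist, a transcript of female cells, was nearly absent from WT 4 (0.176 CPM), while the rest of WT held 134 to 206 CPM. Mutant-labelled libraries 1 to 3 held more Xist, 263 to 327 CPM, and less of the Y-linked sum, 42.9 to 68.3 CPM, than any WT library. Mutant-labelled library 4 held 103 CPM of Xist. All libraries but WT 4 thus held both signals, although a single embryo would carry only one. The signals were not balanced between the labels. Only the fit with the level of the Y-linked genes as a covariate, given below, takes account of this.

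Levels were first set against each other per kilobase of exonic length, since a longer transcript gives more reads. Irx4 was by far the highest, at 30.9 ± 1.65 CPM per kb in WT and 31.9 ± 1.51 CPM per kb in mutant-labelled libraries (SD, n = 4), a level above that of 90.6% of tested genes. Irx3 followed at 8.12 ± 0.747 and 7.1 ± 0.42 CPM per kb, then Irx1 at 6.24 ± 0.412 and 6.93 ± 0.476 CPM per kb. The ventricular gene was thus 3.82 ± 0.195 times the level of Irx3 in WT and 4.49 ± 0.167 times in mutant-labelled libraries (SD, n = 4). Irx2 was at 5.7 ± 0.298 and 5.58 ± 0.748 CPM per kb, and Irx5 at 3.96 ± 0.356 and 3.67 ± 0.587 CPM per kb. Irx6 was the lowest, at 0.71 ± 0.151 and 1.06 ± 0.174 CPM per kb, above 20.2% of tested genes.

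Some neighbours in this order could not be separated over the 8 libraries. The ranges of Irx3 (6.56 to 9.21 CPM per kb) and Irx1 (5.79 to 7.64) overlapped, with Irx3 the higher in 6 of 8 libraries. Those of Irx1 and Irx2 (4.93 to 6.45 CPM per kb) overlapped too, although Irx1 was the higher in 8 of 8. The order of this pair depends on the length taken. Exonic lengths are 2620 bases for Irx1 and 3282 for Irx2, but their longest transcripts are 2373 and 2625 bases. Before division by length, Irx2 had the higher mean in both groups (18.7 against 16.3 CPM in WT, 18.3 against 18.2 CPM in mutant-labelled libraries). Irx4 against Irx3, Irx2 against Irx5, and Irx5 against Irx6 did not overlap.

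The groups were compared gene by gene with edgeR's quasi-likelihood test over all tested genes. None of the 6 passed a false discovery rate (FDR) of 0.05. In the whole table, 81 of 15388 genes did, 0.526%, with 0.312% of tested genes higher and 0.214% lower in mutant-labelled libraries. At an unadjusted p under 0.05 there were 3 of the 6, Irx6, Irx3 and Irx1, where 10.5% of all tested genes reached that level, 5.13% higher and 5.41% lower. That count depended on the fit. It was 3 by limma voom, 2 by DESeq2 and by the likelihood ratio test, and 1 without WT library 1. With the level of the Y-linked genes as a covariate it was also 1. WT and mutant-labelled values were fully separate for 1 of the 6, Irx6, where 6.05% of tested genes had no overlap, 3.07% higher and 2.98% lower. The likelihood ratio test, DESeq2 and limma voom likewise called 0 of the 6. The median log2 fold change was 0.01 over the 6 and 0.00 over all tested genes, with 3 of the 6 higher and 3 lower in mutant-labelled libraries.

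Irx4, the ventricular member, had 85.2, 77.5, 76.5 and 83.4 CPM in WT libraries 1 to 4. The mutant-labelled libraries, in the same order, gave 81.7, 80.7, 89.0 and 81.0 CPM. The groups overlapped throughout, and the highest value was that of mutant-labelled library 3. With 1375.95 to 1923.57 expected counts per library it was the best measured of the family, and had a log2 fold change of 0.04 (SE 0.0435, 95% confidence interval -0.05 to 0.14, FDR 0.802).

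Irx3, the trabecular and conduction gene, was at 25.4, 20.9, 21.3 and 22.1 CPM in WT libraries. In mutant-labelled libraries it was at 19.6, 18.1, 20.9 and 19.8 CPM. The highest mutant-labelled value (20.94) stood just above the lowest WT value (20.93), so the ranges met at this single point. Irx3 had a log2 fold change of -0.19 (SE 0.07, 95% confidence interval -0.35 to -0.04, FDR 0.331). WT library 1 was the highest, and without it the change was -0.13 (FDR 0.537). With the level of the Y-linked genes added as a covariate, the change was -0.15 (FDR 0.638).

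Irx3os, the transcript antisense to Irx3, had the same direction at a far lower level. WT libraries held 1.57, 0.927, 0.956 and 0.966 CPM and mutant-labelled ones 0.91, 0.671, 0.84 and 0.824 CPM. The groups did not overlap, WT library 1 being again the highest, and the log2 fold change was -0.45 (SE 0.255, FDR 0.590). Without that library it was -0.23. With 14.04 to 34.3 expected counts per library, its error was large. Counting Irx3 and Irx3os as 1 gene, a step chosen after seeing the data, gave -0.21 (FDR 0.308).

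Irx1, a gene of the trabecular and conduction domain, was at 15.9, 16.6, 15.2 and 17.7 CPM in WT libraries. In mutant-labelled libraries it was at 17.5, 17.3, 20.0 and 17.8 CPM. WT library 4 exceeded 2 of the mutant-labelled libraries, so the groups overlapped. Irx1 had a log2 fold change of 0.15 (SE 0.0688, 95% confidence interval 0.00 to 0.30, FDR 0.462), opposite in sign to that of Irx3. It was 0.10 without mutant-labelled library 3, the highest of the 8.

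Irx2, known from the same domain, was at 19.8, 18.4, 17.5 and 19.2 CPM in WT libraries. The mutant-labelled libraries were split, at 16.2, 19.6, 21.2 and 16.4 CPM, with libraries 1 and 4 below every WT library and library 3 above them all. The SD was 0.978 CPM in WT and 2.46 CPM in mutant-labelled libraries (n = 4). Irx2 had a log2 fold change of -0.02 (SE 0.0849, 95% confidence interval -0.21 to 0.16, FDR 0.961), and its sign turned when any of 3 libraries was left out: 0.00 without WT library 1, and 0.03 and 0.02 without mutant-labelled libraries 1 and 4.

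Irx5, the repressor of Kcnd2, was at 13.6, 11.7, 11.3 and 12.96 CPM in WT libraries. In mutant-labelled libraries it was at 10.1, 10.2, 11.7 and 14.0 CPM. Mutant-labelled library 4 held the highest value of all 8 while libraries 1 and 2 held the lowest. Irx5 had a log2 fold change of -0.11 (SE 0.107, 95% confidence interval -0.35 to 0.12, FDR 0.783). It was -0.22 (FDR 0.368) without mutant-labelled library 4 and 0.04 (FDR 0.948) with the level of the Y-linked genes added as a covariate. That library also had the highest Y-linked sum of its group, 120 CPM against 42.9 to 68.3 CPM, and the part of this difference in the level of Irx5 was not tested apart from that fit.

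Irx6 differed most, at a low level. It was at 2.5, 2.61, 1.65 and 2.81 CPM in WT libraries. In mutant-labelled libraries it was at 3.19, 4.11, 2.94 and 4.0 CPM. Every mutant-labelled value lay above every WT value, although the gap between 2.81 and 2.94 CPM was small beside the spread within either group. The mean was 2.39 ± 0.51 CPM in WT and 3.56 ± 0.585 CPM in mutant-labelled libraries (SD, n = 4), 1.49-fold apart at a log2 fold change of 0.57 (SE 0.185, 95% confidence interval 0.17 to 0.97). Over all tested genes this did not pass (FDR 0.259).

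Counting error alone limits Irx6 more than the others. Its counts per library give a coefficient of variation of 13.6% in WT and 11.7% in mutant-labelled libraries from sampling, and the observed values were 21.3% and 16.4%. For Irx4 the sampling share was 2.35% and 2.42%, and the observed coefficients were 5.32% and 4.75%. The difference in Irx6 was positive in 20 of 20 alternative fits, from 0.43 to 0.66, with FDR from 0.144 to 0.463. Since the groups did not overlap, leaving out 1 library could not turn this sign, so the count adds no support. The lowest difference, 0.43, came without WT library 3, which had the fewest Irx6 counts.

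**Figure D2:**
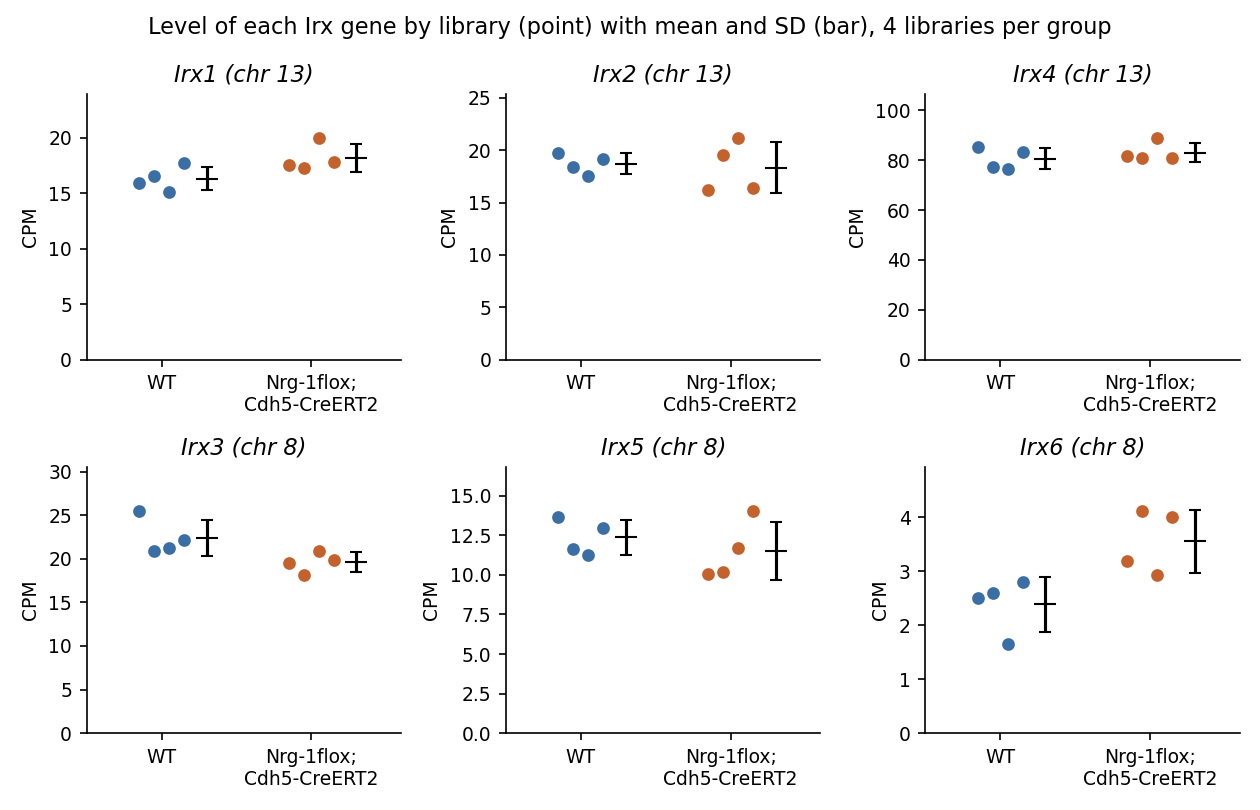
Each point is a library and the bar beside each group is the mean with its SD (n = 4), in CPM on axes that start at 0; WT libraries are blue and mutant-labelled libraries orange, each in the order 1 to 4. Irx6 alone separates the groups, at 1.65 to 2.81 against 2.94 to 4.11 CPM, while Irx4 sits between 76.5 and 89.0 CPM in both.

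**Figure D3:**
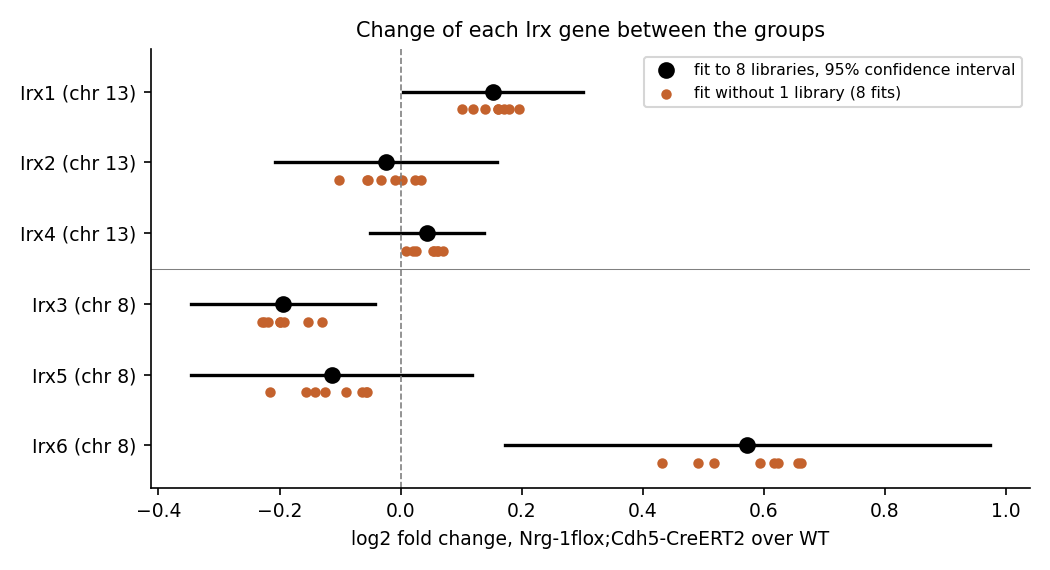
Black points are log2 fold changes of mutant-labelled over WT from the fit to 8 libraries, with 95% confidence intervals, and orange points are fits without 1 library. Irx1, Irx3 and Irx6 have intervals that leave out 0, yet none of the 6 genes passed an FDR of 0.05.

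Because Irx3 and Irx6 share an 88-base run and their means differed in opposite directions, they were also counted as 1 gene, again a step chosen after seeing the data. Together they came to 24.8 ± 2.24 CPM in WT and 23.2 ± 0.817 CPM in mutant-labelled libraries (SD, n = 4). The fold change of the sum was -0.10 on the log2 scale (edgeR FDR 0.627). The sum of Irx2 and Irx5, which share 65 bases, was 31.1 ± 2.08 and 29.8 ± 2.74 CPM, with a log2 fold change of -0.06 (FDR 0.831). Both values lay between those of the members they join, as the fold change of any sum does, so this tells nothing of how reads were divided. How many reads moved between these genes in the counting cannot be seen in gene-level counts.

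The clusters were then compared by their summed level per kilobase, as a description without a test. The chromosome 13 genes Irx1, Irx2 and Irx4 summed to 44.8, 41.7, 40.5 and 44.6 CPM per kb in WT libraries and to 43.0, 43.5, 48.2 and 42.9 CPM per kb in mutant-labelled libraries. The means were 42.9 ± 2.15 and 44.4 ± 2.57 CPM per kb (SD, n = 4). These ranges overlapped, and the highest sum was that of mutant-labelled library 3.

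The chromosome 8 genes Irx3, Irx5 and Irx6 summed to 14.3, 12.1, 11.8 and 12.99 CPM per kb in WT libraries and to 11.2, 11.04, 12.2 and 12.8 CPM per kb in mutant-labelled libraries. Here the means were 12.8 ± 1.14 and 11.8 ± 0.844 CPM per kb (SD, n = 4), and the ranges again overlapped. The chromosome 13 cluster thus held 77.1% ± 0.851 of the summed Irx level in WT and 78.9% ± 1.36 in mutant-labelled libraries (SD, n = 4). In 3 of the mutant-labelled libraries the share was 79.3% to 79.8%, above every WT library (75.8% to 77.5%), while library 4 was at 76.9%.

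Most of the excess of the chromosome 13 cluster was Irx4, which made up 72.2% ± 0.742 of its cluster in WT and 71.8% ± 1.04 in mutant-labelled libraries (SD, n = 4). Irx1 and Irx2 alone summed to 11.9 ± 0.614 and 12.5 ± 1.12 CPM per kb, close to the whole of the chromosome 8 cluster. Within the chromosome 8 cluster, Irx3 held 63.5% ± 1.61 in WT and 60.1% ± 3.2 in mutant-labelled libraries. The share of Irx6 was 4.16% to 6.42% in WT and 7.15% to 11.1% in mutant-labelled libraries, with no overlap. The level of Irx6 itself already separated the groups, so this is not a further result. Irx5 held 31.0% ± 0.652 and 30.9% ± 2.76.

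The clusters did not each move in 1 direction. On chromosome 13, 2 of 3 genes were higher and 1 lower, with a median log2 fold change of 0.04. On chromosome 8, 1 of 3 was higher and 2 lower, with a median of -0.11. Both the most negative change (Irx3, -0.19) and the most positive one (Irx6, 0.57) of the family lay on chromosome 8, and the ranges of log2 fold changes were -0.02 to 0.15 and -0.19 to 0.57.

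**Figure D4:**
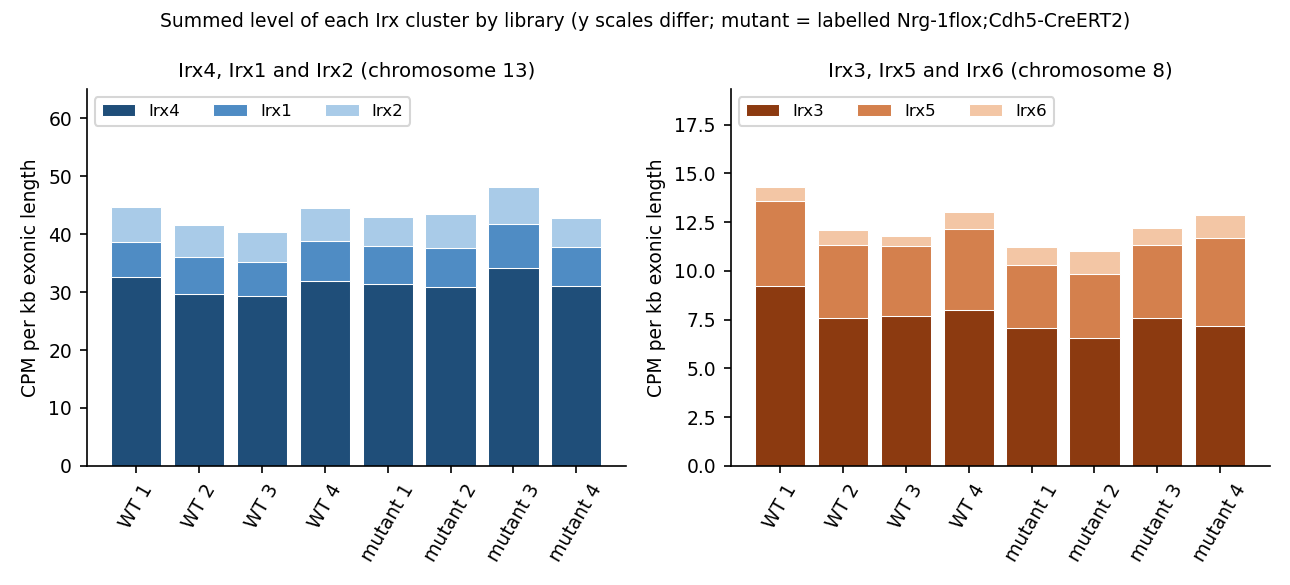
Bars are single libraries, stacked by gene in CPM per kb of exonic length from 0, with the chromosome 13 cluster on the left and the chromosome 8 cluster on the right on a smaller scale. Irx4 makes up about 72% of the left-hand bars in both groups, and on the right the thin top segment, Irx6, is 4.16% to 6.42% of WT bars and 7.15% to 11.1% of mutant-labelled bars.

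Whether genes of a cluster varied together over the 8 libraries was examined for all 15 pairs. None passed after adjustment over the 15. The highest Pearson coefficients were those of 3 pairs from the same cluster, and the highest Spearman coefficient was that of Irx1 and Irx6, from different clusters. Irx1 and Irx6 had r at 0.60 (exact permutation p = 0.115, adjusted 0.398), rho at 0.64 (exact permutation p = 0.0962, adjusted 0.513) and r at 0.66 without mutant-labelled 3 and WT 3. For Irx1 and Irx4, Pearson's r was 0.70 (adjusted 0.398, exact permutation p = 0.0519) and Spearman's rho was 0.57 (exact permutation p = 0.151, adjusted 0.513). This relation rested on the libraries farthest from the median of Irx1, mutant-labelled 3 and WT 3, without which r was -0.17. Irx3 and Irx5 had an r of 0.64 (exact permutation p = 0.0814, adjusted 0.398) and a rho of 0.55 (exact permutation p = 0.171, adjusted 0.513), and r was 0.24 without WT 1 and mutant-labelled 2. Irx2 and Irx4 had an r of 0.60 (exact permutation p = 0.116, adjusted 0.398) and a rho of 0.55 (exact permutation p = 0.171, adjusted 0.513), and r was 0.94 without mutant-labelled 1 and 4.

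The pair that share the long homeobox run went the opposite way. Irx3 and Irx6 had an r of -0.57 (exact permutation p = 0.133, adjusted 0.398) and a rho of -0.81 (exact permutation p = 0.0218, adjusted 0.327), and r was -0.55 without WT 1 and mutant-labelled 2. With each gene centred on its group means, r was -0.08 for this pair and 0.18 for Irx1 and Irx6. The 3 same-cluster pairs above were then at 0.69 (Irx1 and Irx4), 0.60 (Irx3 and Irx5) and 0.69 (Irx2 and Irx4), and the highest of the 15 centred values was 0.82, for Irx4 and Irx3 from different clusters.

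The genes around the clusters were looked at for the same contrast. Of 17 protein-coding genes whose start lies within 1 Mb of an Irx gene on chromosome 13, 12 were tested. Their median log2 fold change was -0.01, with 5 higher and 7 lower. Of the 12, 0 were called, against 0.526% of all tested genes, and 2 were at an unadjusted p under 0.05, against 10.5%. Tppp, a tubulin-binding protein gene, was at 16.3 ± 1.23 and 12.99 ± 2.06 CPM (SD, n = 4; log2 fold change -0.33, FDR 0.217). Nkd2, an inhibitor of Wnt signalling (0.17, FDR 0.639), and the lipid enzyme gene Lpcat1 (-0.13, FDR 0.423) were the next largest.

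On chromosome 8, 7 of 19 such genes were tested, with a median of 0.01, 4 higher and 3 lower. Of the 7, 0 were called or at an unadjusted p under 0.05, against 0.526% and 10.5% of all tested genes. Most of the untested ones were carboxylesterase genes that were absent or nearly so. Fto, whose introns hold enhancers of Irx3 in other tissues, was at 139 ± 3.82 and 137 ± 3.14 CPM (SD, n = 4; log2 fold change -0.02, FDR 0.906). Lpcat2 (0.22, FDR 0.771), Rbl2 (0.07, FDR 0.587) and Chd9 (-0.03, FDR 0.931) had the largest values. Lpcat2 was at 0.08 without mutant-labelled library 4 and, like Chd9, moved with the Y-linked covariate, to 0.53 (FDR 0.465) and -0.15 (FDR 0.462).

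**Figure D5:**
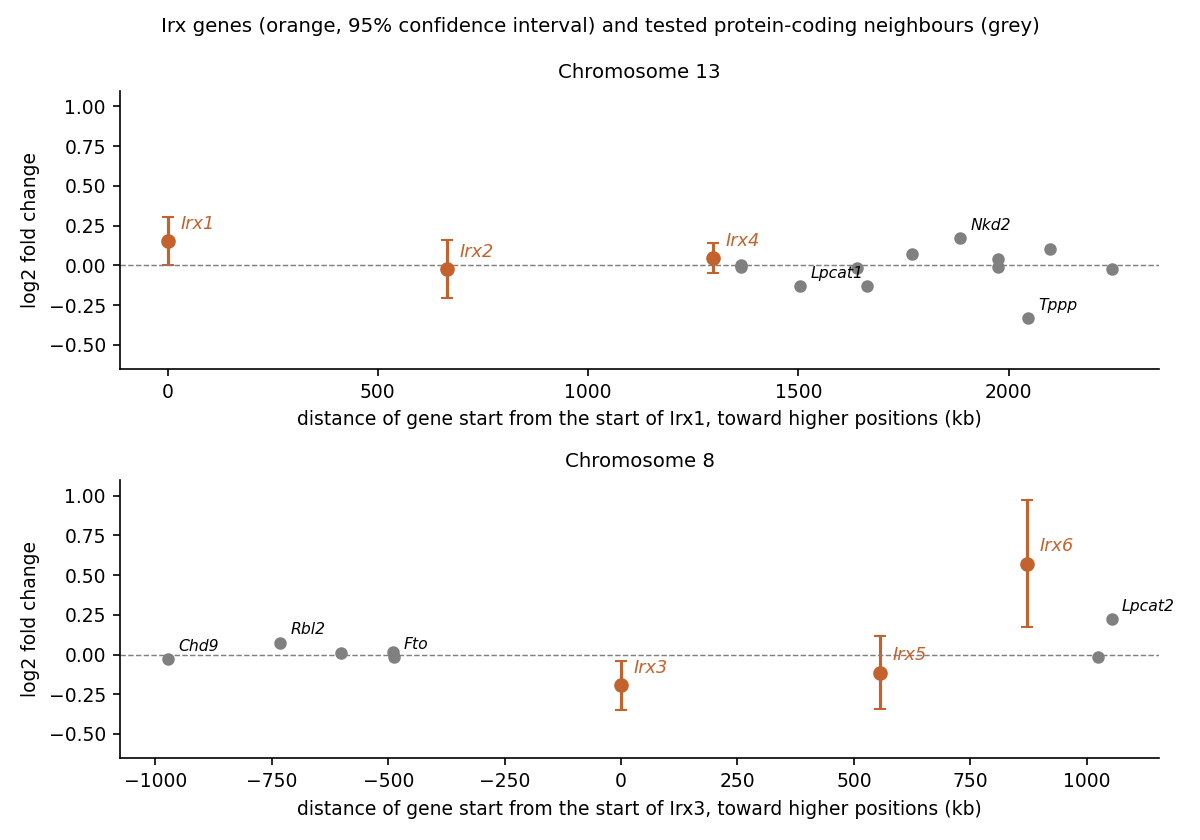
Log2 fold change of mutant-labelled over WT is plotted against the distance in kb of each gene's start from the start of Irx1 (top) or Irx3 (bottom), with Irx genes in orange with 95% confidence intervals and tested protein-coding neighbours in grey. Of the neighbours, Tppp is farthest from 0, at -0.33, and Fto lies at -0.02.

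Other homeobox genes of the TALE class were compared as the nearest relatives in structure. Of 12, 11 were tested and 0 were called or reached an unadjusted p under 0.05, against 0.526% and 10.5% of all tested genes. The median log2 fold change was -0.05, with 9 lower and 2 higher. Tgif1 (-0.10, FDR 0.729), Pknox1 (-0.09, FDR 0.670) and Meis1 (-0.07, FDR 0.613) were the largest at a mean log2 CPM of at least 1.

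Of 17 genes known as cardiac partners or targets of Irx factors, all were tested and 1 passed, against 0.526% of all tested genes. Nkx2-5, a core cardiac homeobox factor, was at 101, 96.4, 92.2 and 98.1 CPM in WT libraries and at 111, 111, 116 and 112 CPM in mutant-labelled libraries. Every mutant-labelled library was above every WT library. Nkx2-5 rose by 0.21 on the log2 scale (SE 0.0334, FDR 0.0194). It passed in 15 of 19 alternatives, with FDR over all of them from 6.21e-05 to 0.0897. The call was lost without WT library 2 (FDR 0.0688), WT library 3 (FDR 0.0632) or mutant-labelled library 3 (FDR 0.0862) and with the Y-linked covariate (FDR 0.0897).

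The remaining partners and targets were given no call. The list had 9 higher and 8 lower genes and a median of 0.00, with 8 of 17 at an unadjusted p under 0.05, where 10.5% of all tested genes were. Kcnd2, the channel gene that Irx5 represses, was at 12.6 ± 2.13 and 14.8 ± 1.03 CPM (SD, n = 4; log2 fold change 0.23, FDR 0.473). Its relative Kcnd3 was at 3.09 ± 0.594 and 1.95 ± 0.39 CPM (-0.66, FDR 0.185). The connexin genes linked to Irx3 were Gja5 (-0.19, FDR 0.403) and Gja1 (-0.04, FDR 0.767). Hand1, a ventricular factor gene, was at 14.0 ± 1.46 and 16.99 ± 2.66 CPM (0.27, FDR 0.390), and its difference was 0.16 without mutant-labelled library 4.

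Trabecular and conduction genes, the domain in which Irx1, Irx2 and Irx3 are expressed, were lower in 10 of 12 tested (of 13 listed), with a median log2 fold change of -0.18. At an unadjusted p under 0.05 there were 6 of the 12, against 10.5% of all tested genes, and the groups were separate for 2, against 6.05%. Gja5 is in this list and in that of partners and targets, and is counted at that p in both. Of the 12, 1 passed, against 0.526%. Etv1, a transcription factor gene of the conduction system, fell by 0.32 on the log2 scale (SE 0.0574, FDR 0.0373). WT libraries held 40.4, 40.0, 41.0 and 35.2 CPM and mutant-labelled ones 29.6, 32.1, 30.1 and 33.9 CPM, with no overlap. The call held in 11 of 19 alternatives. It was lost without any of WT libraries 1, 2 and 3 (FDR 0.0887, 0.0973 and 0.111) or mutant-labelled libraries 1, 2 and 3 (FDR 0.107, 0.0723 and 0.139), with the replicate block (FDR 0.0578) and with the Y-linked covariate (FDR 0.144). Cpne5 (-0.41, FDR 0.062), Bmp10 (-0.55, FDR 0.0606) and Slit2 (-0.57, FDR 0.072) were larger differences that did not pass. Without mutant-labelled library 4, Bmp10 (-0.68, FDR 0.00851) and Slit2 (-0.75, FDR 0.000993) did pass. With the replicate block, Bmp10 (FDR 0.00468) and Slit2 (FDR 0.0171) also passed and Cpne5 (FDR 0.0534) did not. With the Y-linked covariate the changes were smaller, at -0.40 (FDR 0.329) for Bmp10, -0.34 (FDR 0.293) for Slit2 and -0.31 (FDR 0.377) for Cpne5. Beside these genes, the trabecular Irx members were at 0.15 (Irx1), -0.02 (Irx2) and -0.19 (Irx3).

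Compact wall genes were higher in 6 of 6, with a median of 0.09 and 0 called, against 0.526% of all tested genes. At an unadjusted p under 0.05 there were 2 of the 6, against 10.5%, and the groups were separate for 2, against 6.05%. Hey2, a transcription factor gene of compact myocardium, was at 149.6, 159.9, 152.1 and 160.6 CPM in the WT group and at 165.5, 166.2, 170.9 and 160.7 CPM in mutant-labelled libraries (log2 fold change 0.09, FDR 0.356). Mycn, a growth regulator of compact myocardium, was at 36.5 ± 2.22 and 41.8 ± 2.08 CPM (0.20, FDR 0.134; SD, n = 4). The wall lists were chosen with earlier results of these data known, so their directions are no independent evidence.

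In bulk ventricle, fewer cells of a type and less RNA per cell cannot be told apart, so marker genes of the cell types are given beside the Irx values. All 4 ventricular myocyte markers were present, with summed levels of 23520 to 26630 CPM in WT and 24000 to 27250 CPM in mutant-labelled libraries. Both lung epithelium markers were at 0. All 7 atrial markers were detected and lower, with a median of -0.16, and summed to 1683 to 1893 and 1668 to 1814 CPM. The 8 endocardial and endothelial markers had a median of -0.08 (6 lower) and summed to 1087 to 1142 and 1024 to 1112 CPM.

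The other markers completed this check. Fibroblast and valve mesenchyme markers (6 of 7 lower) summed to 5473 to 6461 and 5276 to 6392 CPM, and epicardial markers (0 of 6 lower) to 140 to 154 and 151 to 168 CPM. Smooth muscle markers, 2 of 4 lower, summed to 1558 to 1654 CPM in WT and 1662 to 1759 CPM in mutant-labelled libraries, the one sum that did not overlap. Of 4 nerve and Schwann markers 1 was at 1 CPM or more, and erythroid markers ranged from 2204 to 4855 and 2955 to 4983 CPM. None of these markers was called, and their part in the Irx differences was not tested.

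Finally, the genes most like each Irx gene were sought among 9917 genes with a mean of at least 10 CPM, by Pearson's r of log2 CPM over the 8 libraries. These are descriptions, since with 8 points and so many genes some coefficients are high. The top genes were Rbfox2 (0.94), Srp19 and Ubxn4 (both 0.92) for Irx1, Cdc26, Mlx and Araf (all 0.92) for Irx2, and Ptprd (0.94), Rai1 (0.94) and Arpc5l (0.93) for Irx4. For the other cluster they were Tmem208 (0.96), Tgfbrap1 (0.95) and Upf2 (0.94) for Irx3, Golim4 (0.97), Lrrcc1 (0.94) and Tmem33 (0.94) for Irx5, and Zfp512 (0.98), Rpl7l1 (0.96) and Kdm1a (0.96) for Irx6. Between 6 and 20 genes reached an r of 0.9 with a given Irx gene. Irx6 lay below the level searched, and none of the other Irx genes was among the top 3 of another.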

How the data were processed

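Polyadenylated RNA was made into directional libraries and sequenced as 60-base single reads, per the labels. The authors deposited expected counts per Ensembl gene, made with cutadapt and RSEM 1.3.1 on GRCm38 according to the submitters' processing notes, with gene models of Ensembl release 91 as the table is named. The aligner and strand setting are not given in the sources used here. Of the deposited values 18.1% were not whole (tolerance 1e-09).

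Expected counts were rounded. GENCODE M21, a later annotation of the same assembly, matched 53360 of 53465 identifiers and gave symbols, positions and exonic lengths. Genes were filtered with filterByExpr (minimum count 10) and scaled with TMM factors, which gave the CPM. Groups were compared with edgeR 4.0.16 (glmQLFit, glmQLFTest, two-sided, group as the only term) and Benjamini-Hochberg adjustment over 15388 genes, in R 4.3.3. The standard error is the log2 fold change divided by the square root of F. Correlations used log2(CPM + 0.5) and 40320 permutations (SciPy 1.17.1). The fit was tested on simulated data. DESeq2 1.42.0 and limma 3.58.1 were alternatives, with other scalings, filters, covariates and left-out libraries. Figures used matplotlib 3.10.9 in Python 3.11.15.

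The members and gene lists were chosen with earlier results of these data known. Of each list, genes with FDR below 0.05 and the 3 largest changes at a mean log2 CPM of at least 1 are named; of the neighbours, also Fto, and the rest are counted. Genes named beyond this rule (Gja5, Gja1) were added for their role after their values were seen.

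Same-numbered libraries were checked for pairing by the correlation of their deviations from group means, which was not over 0.1 for every number, so the fit has no block. Each of these values (0.04 to 0.124) was still above all those of different numbers (-0.094 to 0.023). Pairing is therefore not excluded, and a fit with the block is given as an alternative.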

Additional observations from a re-analysis of the deposited data

Results flagged for a closer look

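Of 64 groups of 4 values examined, 7 contained a value standing apart from the remaining 3, and about 3.2 would by chance. Some of these groups are not independent, since the sums and shares of clusters are built from the same genes. How far the number flagged exceeds chance was therefore not tested. Irx4 was at 89.0 CPM in mutant-labelled library 3, against 80.7 to 81.7 CPM in the others of its group. The same library gave the chromosome 13 cluster a summed level of 48.2 CPM per kb, against 42.9 to 43.5 CPM per kb. Without it, the log2 fold change of Irx4 was 0.01. WT library 1 held Irx3os at 1.57 CPM, the rest of WT at 0.927 to 0.966 CPM, and in that library the chromosome 13 cluster held 75.8% of the summed Irx level, against 77.4% to 77.5%. Hand1 reached 11.9 CPM in WT library 3 where the rest of WT had 14.63 to 14.99 CPM. Mutant-labelled library 4 gave 20.9 CPM of Hand1 and the rest of its group 15.2 to 15.9 CPM. WT library 3 was also low in Mycn, 33.1 CPM beside 37.6 CPM in each other WT library.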

How the results depend on the processing

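The summing of genes that share sequence or bases was chosen after seeing the data. No alternative called any of the 6 Irx genes. Irx1 (0.10 to 0.19), Irx4 (0.01 to 0.07), Irx3 (-0.23 to -0.10) and Irx6 (0.43 to 0.66) kept their sign in each alternative. Irx2 ranged from -0.101 to 0.0331 when 1 library was left out. Irx5 turned to 0.0447 with the Y-linked covariate. Among neighbours, Chd9 ranged from -0.0834 to 0.0243 without 1 library and was at -0.154 with the Y-linked covariate, under which Lpcat2 was at 0.53. Over all genes, 81 calls became 338 without a filter, 242 by the likelihood ratio test, 198 by DESeq2, 16 with the Y-linked covariate, 3 at an FDR of 0.01, 190 at an FDR of 0.1, and 11 to 142 without 1 library, fewest without mutant-labelled library 3 and most without mutant-labelled library 4. The cause of these shifts in the number of calls was not tested. Division by the longest transcripts, none longer than the exonic length, raised the level of both clusters in both groups. The chromosome 13 cluster came to 45.2 CPM per kb in WT and 46.7 in mutant-labelled libraries, and the chromosome 8 cluster to 13.7 and 12.7.

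Deviations of same-numbered libraries correlated at 0.122, 0.052, 0.04 and 0.124 across genes, and those of differently numbered ones at -0.094 to 0.023. Each library thus correlated best with its own number, a hint from the data and not the design. With the replicate block 93 genes were called. The log2 fold changes with the block were 0.15 (Irx1), -0.03 (Irx2), 0.04 (Irx4), -0.19 (Irx3), -0.11 (Irx5) and 0.58 (Irx6), and of the named genes the block took away the call of Etv1 and gave one to Bmp10 (FDR 0.00468) and Slit2 (FDR 0.0171). Genes without a call in the comparison gained one in some of their 19 alternatives: Bmp10 and Slit2 in 4 each, Cpne5 in 3, Mycn in 2 and Tppp in 1. Low counts limit Irx6 and Irx3os, and antisense genes and shared homeobox reads leave the division of reads within the chromosome 8 cluster uncertain.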

Other observations

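The relation of Irx1 to Irx3 was picked after the values were seen. Per kilobase, Irx1 was at 0.659, 0.836, 0.752 and 0.843 times the level of Irx3 in WT libraries 1 to 4 and at 0.945, 1.01, 1.01 and 0.948 times in mutant-labelled libraries 1 to 4. The means were 0.773 ± 0.0861 and 0.976 ± 0.0345 (SD, n = 4), and the groups did not overlap. By this measure Irx3 was the more abundant of these trabecular genes in every WT library, while in mutant-labelled libraries they stood nearly level. How level they stand depends on the length taken. Exonic lengths are 2620 bases for Irx1 and 2762 for Irx3, and their longest transcripts are 2373 and 2748 bases. The ratio joins 2 differences, neither of which passed over all genes, and it was given no test. Irx6 per Irx3 was likewise at 0.0637 to 0.104 in WT and at 0.115 to 0.186 in mutant-labelled libraries, which restates the separation of Irx6 itself.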
